A study of Homo sapiens with 4 samples.

Results

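Cell cycle genes were examined in 4 RNA-seq libraries of human cells, 2 with a vector for U1 snRNA overexpression (U1_OE) and 2 with an empty vector (control, titled WT). The 48 genes were chosen by name from the 25283 rows of the deposited table, and all 48 were found. They comprised 20 genes of DNA replication and S phase entry, 20 genes of mitosis, and 8 G1 regulators, which are the D-type cyclins, their kinases and inhibitors. The cells derived from the human embryonic stem cell line H1 by way of neural progenitors and a neuron maturation medium, and both groups had received a lentiviral vector for 36 hours. U1 snRNA pairs with 5′ splice sites as part of the spliceosome. The labels name no separate cultures, so p-values measure only the spread between these libraries, which may be technical. The treatment protocol is worded alike for both groups and mentions only the overexpression vector, so groups follow the genotype labels and titles. The level of U1 snRNA was not analysed here.

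A dividing cell licenses its replication origins in G1 by loading the MCM helicase, copies its DNA in S phase, and then assembles the spindle under CDK1 with cyclins A and B. The cyclin D kinases CDK4 and CDK6 phosphorylate the RB protein, which frees E2F factors to transcribe the replication genes. The mitotic genes are transcribed later in the cycle, through promoters with a cell cycle homology region and CCAAT boxes bound by NF-Y. Neurons have left the cycle, and transcripts of both programmes are low in postmitotic cells.

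The libraries did not have the marker profile of a pure neuronal culture. Of 12 fixed neuronal markers 10 were measured, and RBFOX3, DCX, STMN2 and NEFM lay under 1 CPM (counts relative to a library size scaled by TMM) in every library. MAP2, TUBB3, SNAP25 and SYT1, 4 of the 10, were at 1 CPM or more in every library, and TUBB3 alone was at 10 CPM or more. All 14 mesenchymal markers reached at least 10 CPM in every library. Library totals ran from 16713505 to 19057423 estimated counts, and all 48 members passed the filter on low counts. In bulk RNA, fewer cycling cells and less of a transcript per cell cannot be told apart.

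The 2 programmes carry different promoter words, and the windows below are shown as examples. Whether the words bear on how the genes varied among these libraries was not tested. RefSeq windows (GRCh38.p14, 250 bases before to 50 after the start) matched 40 of the 48 members. Capitals mark, on either strand, the E2F words TTTCCCGC, TTTGGCGC, TTTCGCGC and TTTGCCGC, the cell cycle homology region words TTTGAA and TTCGAA, and the CCAAT box CCAAT. The first pair are helicase subunit genes, MCM2 (chr3:127598161-127598460, plus strand) and MCM6 (chr2:135876394-135876693, minus strand). The others are mitotic genes, CDK1 (chr10:60778081-60778380, plus strand), PRC1 (chr15:90994486-90994785, minus strand) and CCNB2 (chr15:59104896-59105195, plus strand).
MCM2: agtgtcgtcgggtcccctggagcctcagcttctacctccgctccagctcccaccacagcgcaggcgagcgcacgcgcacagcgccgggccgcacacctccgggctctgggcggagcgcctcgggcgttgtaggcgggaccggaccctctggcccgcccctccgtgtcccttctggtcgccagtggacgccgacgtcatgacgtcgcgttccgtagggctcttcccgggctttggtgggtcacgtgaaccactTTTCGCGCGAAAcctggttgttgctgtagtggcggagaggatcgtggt
MCM6: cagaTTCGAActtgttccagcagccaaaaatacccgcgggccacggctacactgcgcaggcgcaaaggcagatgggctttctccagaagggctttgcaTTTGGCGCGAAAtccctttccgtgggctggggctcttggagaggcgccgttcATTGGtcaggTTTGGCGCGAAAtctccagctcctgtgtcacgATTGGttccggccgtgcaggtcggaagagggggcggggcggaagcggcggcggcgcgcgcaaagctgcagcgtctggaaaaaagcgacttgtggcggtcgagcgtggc
CDK1: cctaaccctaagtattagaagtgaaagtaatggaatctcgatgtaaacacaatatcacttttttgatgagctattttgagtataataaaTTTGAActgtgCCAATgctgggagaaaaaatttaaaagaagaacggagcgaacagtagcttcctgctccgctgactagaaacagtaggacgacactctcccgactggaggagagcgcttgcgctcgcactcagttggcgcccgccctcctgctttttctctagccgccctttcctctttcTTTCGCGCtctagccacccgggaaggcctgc
PRC1: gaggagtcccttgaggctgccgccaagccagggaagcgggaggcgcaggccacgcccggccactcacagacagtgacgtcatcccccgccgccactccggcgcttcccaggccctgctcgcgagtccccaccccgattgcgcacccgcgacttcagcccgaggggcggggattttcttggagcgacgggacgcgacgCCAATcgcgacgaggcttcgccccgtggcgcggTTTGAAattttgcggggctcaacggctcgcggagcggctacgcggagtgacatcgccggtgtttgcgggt
CCNB2: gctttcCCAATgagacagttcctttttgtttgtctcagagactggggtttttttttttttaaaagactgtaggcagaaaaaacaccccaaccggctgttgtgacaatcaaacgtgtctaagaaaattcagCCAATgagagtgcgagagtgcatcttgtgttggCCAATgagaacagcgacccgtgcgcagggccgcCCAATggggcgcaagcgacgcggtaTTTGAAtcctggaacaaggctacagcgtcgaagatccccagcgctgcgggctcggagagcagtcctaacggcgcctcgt
In MCM2 and in both E2F stretches of MCM6 the capitals hold overlapping words on opposite strands. CDK1 alone of the 3 mitotic windows shown holds an E2F word.

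An E2F word was found in 12 of 17 replication windows, 2 of 17 mitotic windows and 0 of 6 G1 regulator windows, against 5.22% of the 11828 windows of tested genes. A cell cycle homology region word was found in 12 of 17 mitotic windows and 2 of 17 replication windows, against 11.6% of tested genes. This word and a CCAAT box stood together in 11 of 17 mitotic windows, 2 of 17 replication windows and 4.90% of tested genes. A CCAAT box, with or without the other words, was found in 15 of 17 mitotic windows, 11 of 17 replication windows and 36.4% of tested genes. These matches describe letters in a window and are not evidence of binding.

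The design asks what U1 snRNA overexpression does to gene expression in these cells. Mitotic transcripts were lowest in U1_OE replicate 1 and mostly highest in control replicate 2, with U1_OE replicate 2 and control replicate 1 between them. The median level of the 20 mitotic genes was 2.56 and 6.19 CPM in the U1_OE libraries, against 5.36 and 8.96 CPM in the control libraries. For the 20 replication genes it was 7.88 and 11.4 CPM in the U1_OE libraries, against 12.3 and 13.9 CPM in the control libraries. For the 8 G1 regulators it was 98.1 and 89.9 CPM in the U1_OE libraries, against 100.4 and 103.4 CPM in the control libraries. Thus the groups overlapped in the mitotic median, whereas the median CPM of the other sets was lower in both U1_OE libraries. That separation depends on the measure. The replication genes overlapped between the groups in summed CPM and in median deviation from the gene mean, both given below. The G1 regulators summed to 974 and 1374 CPM in the U1_OE libraries, against 1350 and 1286 CPM in the control libraries, which also overlapped. Their median deviation was -0.35 and -0.03, against 0.09 and 0.14.

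Neither the quasi-likelihood test of edgeR, adjusted by Benjamini-Hochberg, nor limma-voom called any of the 48 members, and DESeq2 called 1, CCND3. edgeR called 0% of all 17317 tested genes and DESeq2 1.08% of 17440. Of the members, 2 had an unadjusted edgeR p under 0.05, CDK1 and CCND3, both lower in U1_OE, which is 4.17% of the members against a background of 4.72% of tested genes in that direction. None had such a p and was higher, against 4.36% of tested genes, and the background in either direction was 9.08%. The lowest adjusted p of a member was 0.459 by edgeR.

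The direction of the estimates was less evenly divided. The log2 fold change was negative for 16 of 20 replication genes, 20 of 20 mitotic genes and 6 of 8 G1 regulators, against 50.7% of all tested genes. The median log2 fold change was -0.22 for replication genes, -0.58 for mitotic genes and -0.22 for G1 regulators, and -0.01 over all tested genes. Without U1_OE replicate 1, 13 of 20 replication and 12 of 20 mitotic genes were negative and the medians were -0.08 and -0.09. Without control replicate 2 they were 11 and 15 genes, with medians of -0.10 and -0.13. The shift was larger with either of the other libraries left out. Without U1_OE replicate 2, 17 and 20 genes were negative, with medians of -0.43 and -1.36. Without control replicate 1 they were 16 and 20 genes, with medians of -0.37 and -1.01. Of the 29 estimates over the 48 members that kept their sign without each library in turn, 28 moved by over 1.5 times in at least 1 of these fits, and CCND3 did not. Genes of a programme vary together, so these counts are not independent observations.

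**Figure D1:**
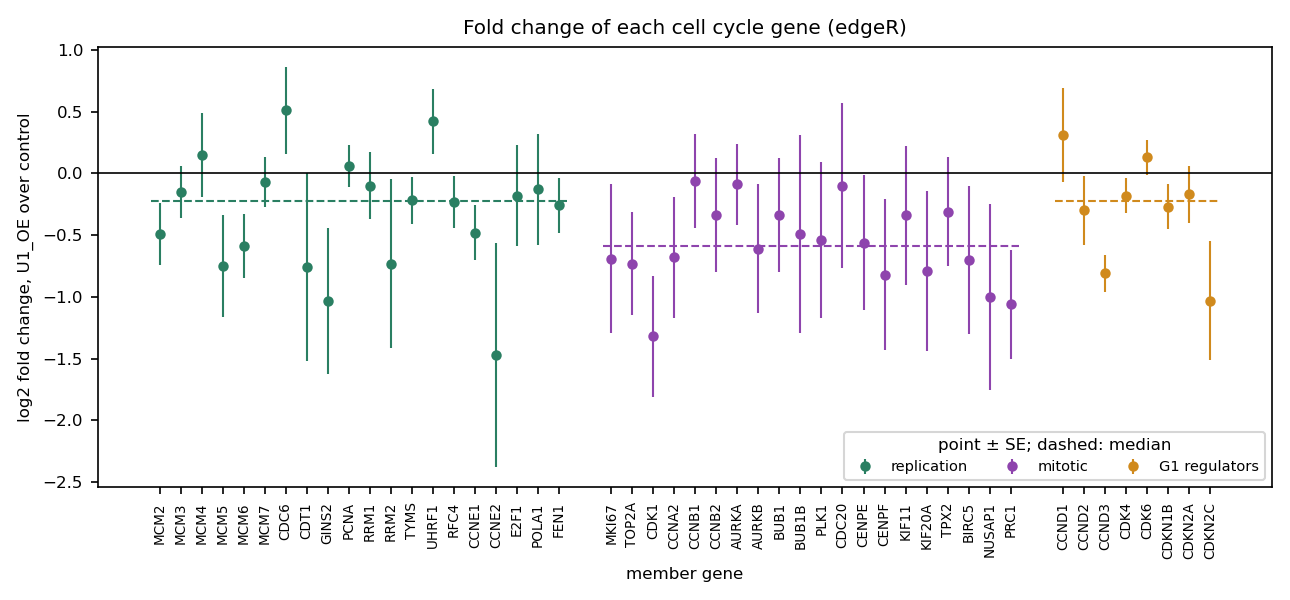
edgeR log2 fold change of U1_OE over control (points, vertical axis) with its standard error (bars) for each of the 48 genes along the horizontal axis, coloured by set, with dashed lines at the set medians. All 20 mitotic points lie below 0, around a median of -0.58, and the replication points spread around -0.22.

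U1_OE replicate 1 was the lowest library for 20 of 20 mitotic genes, 13 of 20 replication genes and 4 of 8 G1 regulators, compared with 30.3% of all tested genes. Control replicate 2 was the highest for 17 of 20 mitotic, 15 of 20 replication and 4 of 8 G1 genes, compared with 25.1% of tested genes. U1_OE replicate 2 lay between the control libraries for 15 of 20 mitotic genes, below both for 2 and above both for 3. Over all tested genes these shares were 27.6%, 38.0% and 34.4%.

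Replicate 2 exceeded replicate 1 for 20 of 20 mitotic genes in the U1_OE group and for 20 of 20 in the control group. The median gap, replicate 2 minus replicate 1, was 1.11 in U1_OE and 0.66 in control on the log2(CPM + 0.5) scale. For replication genes the gaps were 0.42 and 0.39. The gap within at least 1 group was larger than the difference between the group means for 18 of 20 mitotic and 17 of 20 replication genes, against 70.8% of tested genes. The median gap over all tested genes was 0.00 in either group.

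Both U1_OE libraries lay below both control libraries for 7 of 20 replication genes, 2 of 20 mitotic genes and 4 of 8 G1 regulators, which is 27.1% of the 48 against 22.0% of tested genes. Both lay above for 2 replication genes, CDC6 and UHRF1, against a background of 19.7%.

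**Figure D2:**
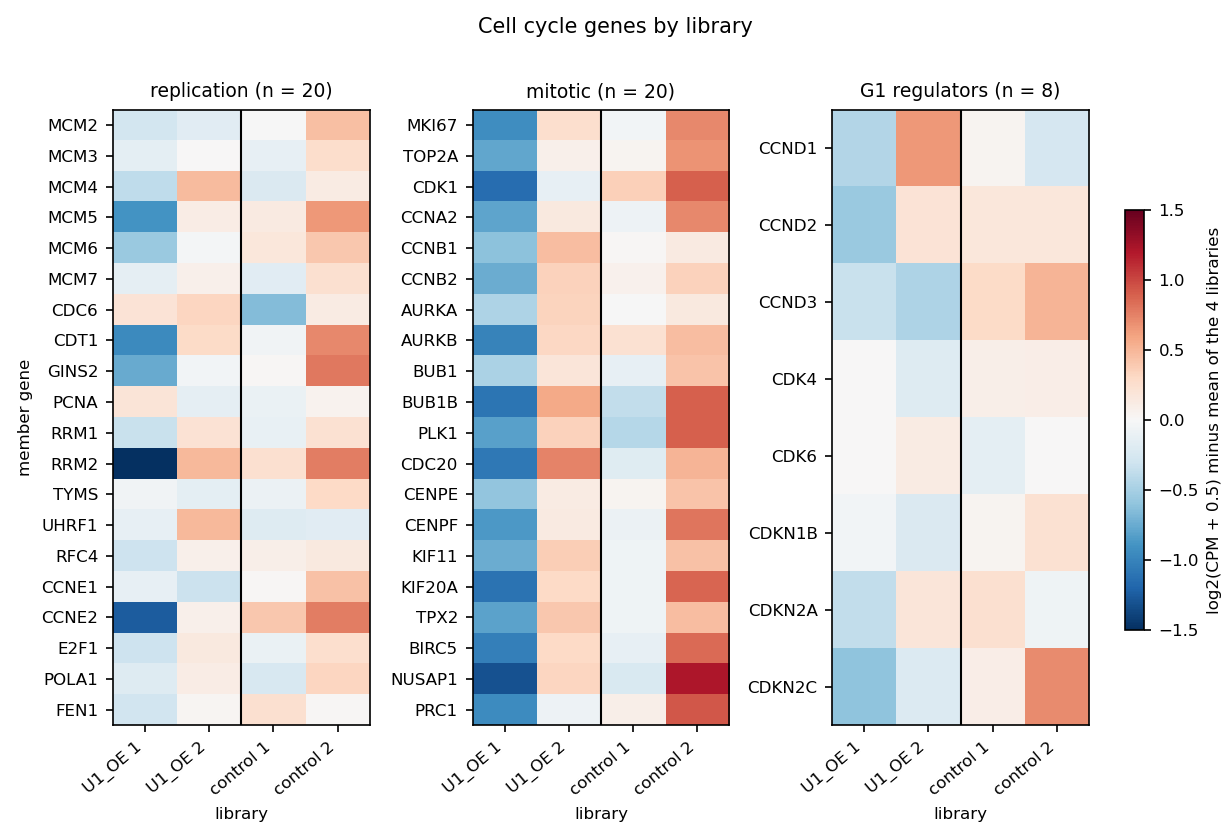
Deviation of log2(CPM + 0.5) from the mean of the 4 libraries (colour, blue lower and red higher) for each gene (rows) in each library (columns), with a line between the U1_OE and control columns. The U1_OE replicate 1 column is blue for every mitotic gene, and the control replicate 2 column is red for every mitotic gene.

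The replication and mitotic sets were contrasted within each library. The median deviation from the gene mean was -0.30 and 0.07 for replication genes in the U1_OE libraries, against -0.07 and 0.28 in the control libraries. For mitotic genes it was -0.83 and 0.30 in the U1_OE libraries, against -0.06 and 0.69 in the control libraries. The library order was the same in both sets, and the range was wider for the mitotic genes. The replication median minus the mitotic median was 0.54 and -0.23 in the U1_OE libraries, against -0.01 and -0.41 in the control libraries. U1_OE replicate 2 lay between the control libraries here too. Between the groups the difference of the median log2 fold changes was 0.36, and it was 0.01 without U1_OE replicate 1 and 0.03 without control replicate 2. It was 0.93 without U1_OE replicate 2 and 0.64 without control replicate 1.

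Summed over genes, mitotic transcripts had 72.1 and 172 CPM in the U1_OE libraries, against 132 and 211 CPM in the control libraries. Replication transcripts had 248 and 287 CPM in the U1_OE libraries, against 266 and 328 CPM in the control libraries. The mitotic sum was 0.290 and 0.600 times the replication sum in the U1_OE libraries, against 0.495 and 0.643 times in the control libraries.

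**Figure D3:**
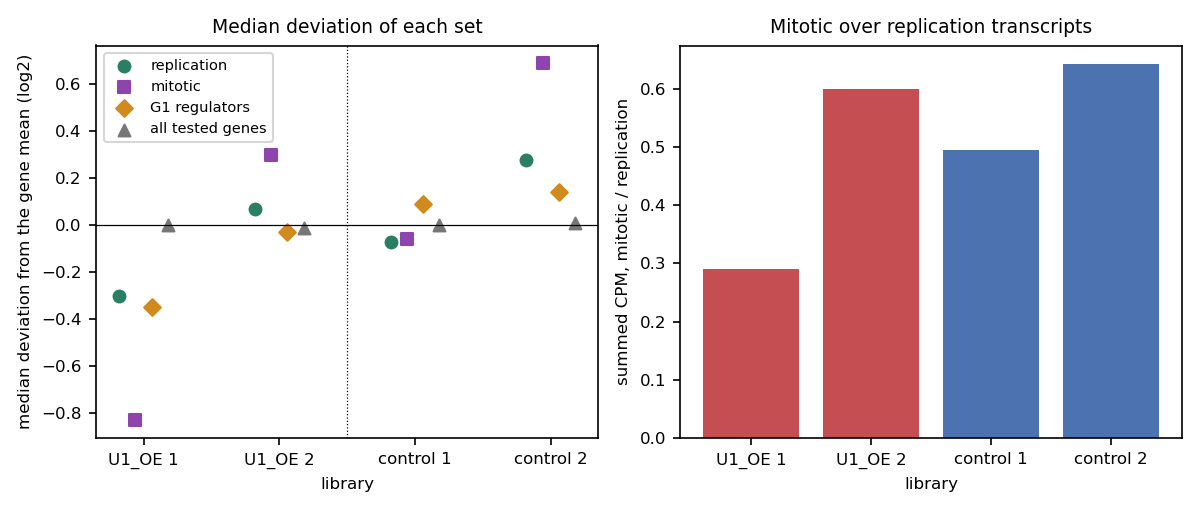
Left, median deviation (log2) of each gene set and of all tested genes from the gene mean, by library; right, summed CPM of mitotic genes divided by that of replication genes, by library. U1_OE replicate 1 stands lowest in both panels at -0.83 for mitotic genes and at a ratio of 0.290, and U1_OE replicate 2 lies between the control libraries on the right at 0.600.

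Among replication genes, the MCM2 to MCM7 subunits form the helicase that unwinds DNA at the fork. MCM6 (chromosome 2, 135839626 to 135876426, minus strand in GENCODE v29) had 6.96 and 10.3 CPM in the U1_OE libraries, against 11.9 and 14.04 CPM in the control libraries, a log2 fold change of -0.59 ± 0.26 (SE). MCM5 had 5.42 and 11.4 CPM in the U1_OE libraries, against 11.7 and 16.8 CPM in the control libraries (-0.75 ± 0.41). MCM2 had 7.08 and 7.71 CPM in the U1_OE libraries, against 8.65 and 12.05 CPM in the control libraries (-0.49 ± 0.25). For these 3 subunits both U1_OE libraries were below both control libraries, with edgeR adjusted p of 0.581 for MCM6, 0.662 for MCM5 and 0.626 for MCM2.

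The other subunits overlapped between the groups. MCM7 had 20.3 and 23.5 CPM in the U1_OE libraries, against 19.7 and 26.4 CPM in the control libraries. MCM3 and MCM4 had log2 fold changes of -0.15 ± 0.21 and 0.15 ± 0.34, and MCM4 was highest in U1_OE replicate 2, at 22.7 CPM. Per kilobase of exon, MCM7 made up 33.6% and 29.5% of the summed helicase transcripts in the U1_OE libraries, against 27.6% and 28.1% in the control libraries. MCM5 made up 5.36% and 8.57% in the U1_OE libraries, against 9.75% and 10.7% in the control libraries.

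Origin licensing and helicase activation genes had estimates of both signs. CDC6, which helps load the helicase, had 7.02 and 7.60 CPM in the U1_OE libraries, against 3.65 and 6.58 CPM in the control libraries (0.51 ± 0.35). It was chosen after its values were seen, as was UHRF1, a reader of hemimethylated DNA that maintains methylation, with 10.7 and 16.6 CPM in the U1_OE libraries against 10.1 and 10.3 CPM in the control libraries (0.42 ± 0.26). The UHRF1 estimate was 0.07 without U1_OE replicate 2, and that of CDC6 was 0.17 without control replicate 1. GINS2, a subunit of the complex that activates the helicase, had 0.862 and 1.73 CPM in the U1_OE libraries, against 1.82 and 3.48 CPM in the control libraries (-1.03 ± 0.59). CDT1, the partner of CDC6 in loading, had -0.76 ± 0.76 and overlapped between the groups.

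The clamp PCNA had the highest level per kilobase among the replication genes and was nearly level across the libraries. It had 92.3 and 73.5 CPM in the U1_OE libraries, against 75.4 and 83.6 CPM in the control libraries, a log2 fold change of 0.06 ± 0.17. Of the remaining fork genes, RFC4, a clamp loader subunit, FEN1, the flap endonuclease, and POLA1, the catalytic subunit of primase-polymerase, had -0.23 ± 0.21, -0.26 ± 0.22 and -0.13 ± 0.45. Nucleotide supply genes differed in how far they followed the library order. RRM2, the S phase subunit of ribonucleotide reductase, had 4.06 and 17.6 CPM in the U1_OE libraries, against 14.7 and 21.5 CPM in the control libraries, whereas its partner RRM1 had 11.8 and 17.6 CPM in the U1_OE libraries, against 13.9 and 17.6 CPM in the control libraries. RRM2 was chosen for mention after its values were seen. TYMS, thymidylate synthase, had -0.22 ± 0.19.

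Cyclin E genes, whose products activate CDK2 at S phase entry, were lower in both U1_OE libraries than in both control libraries. CCNE1 had 13.2 and 11.4 CPM in the U1_OE libraries, against 14.6 and 19.7 CPM in the control libraries (-0.48 ± 0.22, edgeR adjusted p = 0.599). CCNE2 was scarce, with 3 and 23 counts in the U1_OE libraries, against 28 and 41 counts in the control libraries (-1.47 ± 0.91, edgeR adjusted p = 0.685). E2F1, a transcription factor of this step, had -0.18 ± 0.41.

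Among mitotic genes, CDK1, the kinase that drives entry into mitosis (chromosome 10, 60778331 to 60794852, plus strand), had the smallest p. It had 1.72 and 4.04 CPM in the U1_OE libraries, against 5.83 and 8.68 CPM in the control libraries. Both U1_OE libraries were lower, with a log2 fold change of -1.32 ± 0.49 and an edgeR adjusted p of 0.534. The estimate was -0.83 without U1_OE replicate 1 and -2.07 without U1_OE replicate 2. PRC1, which bundles microtubules of the central spindle, had 4.43 and 8.49 CPM in the U1_OE libraries, against 9.60 and 17.5 CPM in the control libraries (-1.06 ± 0.44, edgeR adjusted p = 0.568). CDK1 and PRC1 were the only mitotic genes among the 20 whose groups did not overlap. PRC1 overlaps the annotated PRC1-AS1 and a same-strand gene, so its reads may be shared with them.

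The cyclins that bind CDK1 overlapped between the groups. CCNB1 had 11.8 and 25.4 CPM in the U1_OE libraries, against 18.5 and 20.2 CPM in the control libraries (-0.06 ± 0.38). The U1_OE libraries stood on either side of the control libraries. CCNA2 had 2.89 and 6.03 CPM in the U1_OE libraries, against 5.06 and 9.23 CPM in the control libraries (-0.68 ± 0.49), and CCNB2 had -0.34 ± 0.46. All 4 genes of this role were lowest in U1_OE replicate 1.

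Markers of proliferation were low in all libraries and overlapped between the groups. MKI67, a coat protein of mitotic chromosomes, had 1.35 and 3.72 CPM in the U1_OE libraries, against 2.94 and 5.31 CPM in the control libraries (-0.69 ± 0.60). TOP2A, which decatenates sister chromosomes, had 3.33 and 6.40 CPM in the U1_OE libraries, against 6.24 and 9.95 CPM in the control libraries (-0.73 ± 0.42). In both genes U1_OE replicate 1 was the lowest and U1_OE replicate 2 lay between the control libraries.

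The spindle and kinetochore genes repeated this order. TPX2, which targets Aurora A to microtubules and had the highest level per kilobase of the mitotic set, had 15.8 and 37.0 CPM in the U1_OE libraries, against 26.5 and 38.7 CPM in the control libraries (-0.31 ± 0.44). NUSAP1, a spindle microtubule protein, had 2.40 and 8.44 CPM in the U1_OE libraries, against 5.65 and 16.15 CPM in the control libraries, with a log2 fold change of -1.0 ± 0.75 that ran from -2.18 to -0.05 with a library left out. CENPF, an outer kinetochore protein, had 1.17 and 2.83 CPM in the U1_OE libraries, against 2.35 and 4.76 CPM in the control libraries (-0.82 ± 0.61). Of the 8 genes of this role, U1_OE replicate 2 lay between the control libraries for 7, with PRC1 as the exception. The others were CENPE and KIF11, KIF20A and BIRC5, which are kinetochore or spindle motors and the survivin subunit of the chromosomal passenger complex, with log2 fold changes from -0.79 for KIF20A to -0.34 for KIF11.

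The mitotic kinases and checkpoint genes also overlapped between the groups. AURKA, AURKB and PLK1 had log2 fold changes of -0.09 ± 0.33, -0.61 ± 0.52 and -0.54 ± 0.63. BUB1 and BUB1B, which act in the spindle checkpoint, had -0.34 ± 0.46 and -0.49 ± 0.80. CDC20, the activator of the anaphase-promoting complex, had -0.10 ± 0.67. CDC20 was chosen for mention after its values were seen and had 3.20 and 12.5 CPM in the U1_OE libraries, against 6.36 and 10.5 CPM in the control libraries, so that U1_OE held both its lowest and its highest library.

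The G1 regulators followed the library order of the mitotic genes only in part. U1_OE replicate 1 lay below both control libraries for 7 of 8 of them, against 38.7% of tested genes, but was the lowest library for 4 of 8. The most even difference of this set was that of CCND3. CCND3, 1 of the 3 D-type cyclins (chromosome 6, 41934933 to 42050357, minus strand), had 239 and 218 CPM in the U1_OE libraries, against 369 and 429 CPM in the control libraries. Both U1_OE libraries were lower than both control libraries, and the gap within each group was small beside that between groups. The log2 fold change was -0.81 ± 0.15 by edgeR (adjusted p = 0.459). By DESeq2 it was -0.79 ± 0.17 (SE; adjusted p = 0.00111), a call made for 0.47% of genes in this direction. The DESeq2 call was kept without U1_OE replicate 1 (adjusted p = 0.0105) and without U1_OE replicate 2 (adjusted p = 0.0336). It was lost without control replicate 1 (DESeq2 adjusted p = 0.264) and without control replicate 2 (DESeq2 adjusted p = 1.00), where the estimates were -0.90 and -0.69.

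CCND1 and CCND2 went with neither group. CCND1 had 286 and 609 CPM in the U1_OE libraries, against 397 and 325 CPM in the control libraries (0.31 ± 0.38). The U1_OE libraries lay on either side of the control libraries. CCND2 had 21.06 and 36.01 CPM in the U1_OE libraries, against 35.1 and 35.2 CPM in the control libraries (-0.30 ± 0.28). Only U1_OE replicate 1 stood apart there. Per kilobase of exon, CCND3 made up 39.9% and 22.2% of D-type cyclin transcripts in the U1_OE libraries, against 42.2% and 50.6% in the control libraries, and CCND1 57.3% and 74.8% in the U1_OE libraries, against 54.5% and 46.03% in the control libraries.

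The cyclin D kinases differed little. CDK4 had 157 and 137 CPM in the U1_OE libraries, against 166 and 168 CPM in the control libraries (-0.18 ± 0.14). CDK6 had 39.2 and 42.5 CPM in the U1_OE libraries, against 35.3 and 39.3 CPM in the control libraries (0.13 ± 0.14). CDK4 made up 92.6% to 94.8% of the summed CDK4 and CDK6 transcripts per kilobase over the 4 libraries. CDK4 and TSPAN31 overlap on opposite strands, and the library preparation is not stated to keep strand.

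The inhibitors were CDKN1B, which encodes p27, CDKN2C, which encodes p18, and CDKN2A, which encodes p16 and ARF. CDKN1B had 15.1 and 13.3 CPM in the U1_OE libraries, against 15.9 and 18.2 CPM in the control libraries (-0.27 ± 0.18). CDKN2C had 1.11 and 1.63 CPM in the U1_OE libraries, against 2.12 and 3.48 CPM in the control libraries (-1.03 ± 0.48). Both were lower in both U1_OE libraries, with edgeR adjusted p of 0.699 for CDKN1B and 0.602 for CDKN2C. CDKN2A overlapped between the groups (-0.17 ± 0.23). Its mean level per kilobase was 65.3 CPM, close to that of CCND3 at 54.07 CPM and CDK4 at 49.5 CPM, whereas MKI67 had 0.260 CPM and CDK1 1.29 CPM.

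**Figure D4:**
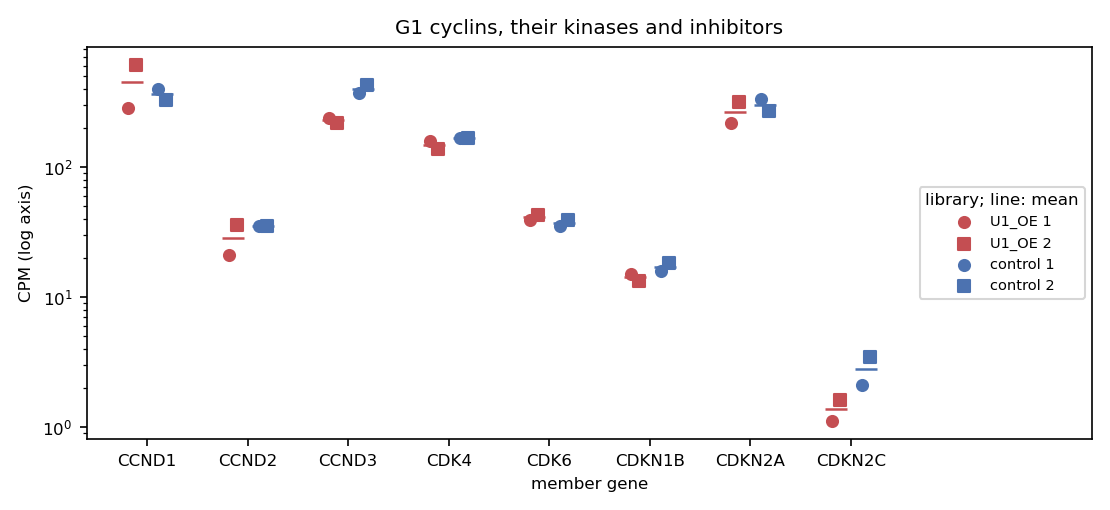
CPM (log axis) of the 8 G1 regulators in the U1_OE libraries (red) and control libraries (blue), with circles for replicate 1, squares for replicate 2 and a line at each group mean. CCND3 is the gene with the widest space between groups relative to the spread within them, and the U1_OE points of CCND1 lie on either side of the control points.

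Of 45 further spindle, kinetochore and cytokinesis genes, 41 had a negative log2 fold change (median -0.50), 38 were lowest in U1_OE replicate 1, and 32 were highest in control replicate 2. Of 36 further licensing and fork genes, 30 were negative (median -0.23) and 23 were lowest in U1_OE replicate 1. However, 13 were highest in control replicate 2 and 11 in control replicate 1. Their median gap between the control replicates was 0.06, against 0.39 for the replication members. The library order of the members was thus not repeated in full. edgeR and DESeq2 called 0 genes of these lists, and 1 gene of each had an unadjusted edgeR p under 0.05 and was lower. That is 2.22% of the spindle list and 2.78% of the licensing list, against 4.72% of tested genes. These were CENPM, a centromere protein, with -1.15 ± 0.40, and DUT, the dUTP pyrophosphatase. DUT had 41.9 and 49.8 CPM in the U1_OE libraries, against 67.1 and 76.5 CPM in the control libraries (-0.65 ± 0.16). Both genes were lower in both U1_OE libraries, but they were named for the smallest p of their list.

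Regulators of the E2F and DREAM programmes had 19 of 27 tested genes negative and a median of -0.12. An unadjusted edgeR p under 0.05 was found for 3 of 27, all lower, which is 11.1% against the background of 4.72%, and edgeR and DESeq2 called 0. WEE1, the kinase that holds CDK1 inactive, had 5.97 and 8.44 CPM in the U1_OE libraries, against 12.8 and 18.0 CPM in the control libraries (-1.09 ± 0.28, edgeR adjusted p = 0.459). LIN54 and RBL2, a DNA-binding subunit and a pocket protein of the DREAM complex, had -0.72 ± 0.23 and -0.45 ± 0.15. CDKN1A, which encodes the CDK inhibitor p21, had 1360 and 1064 CPM in the U1_OE libraries, against 1036 and 766 CPM in the control libraries (0.43 ± 0.22, edgeR adjusted p = 0.628). CDKN1A was highest in U1_OE replicate 1, as were 28.7% of tested genes, and lowest in control replicate 2, as were 22.6%. Mitotic genes were lowest in the former library and mostly highest in the latter. However, CDKN1A and the mitotic median were both higher in U1_OE replicate 2 than in control replicate 1. A link between them was not tested. Of the 5 CDK inhibitors in this list, 2 were negative and edgeR called 0. CDKN3, a phosphatase that acts on CDKs, had 4.74 and 6.19 CPM in the U1_OE libraries, against 8.77 and 8.52 CPM in the control libraries (-0.66 ± 0.24, edgeR adjusted p = 0.534). It was the only 1 of the 5 with an unadjusted p under 0.05, and both U1_OE libraries were lower. CDKN2D, which encodes p19, had 17.6 and 17.2 CPM in the U1_OE libraries, against 10.9 and 14.2 CPM in the control libraries (0.47 ± 0.20, edgeR adjusted p = 0.571).

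The summed level of the 14 mesenchymal markers was 89947 and 81696 CPM in the U1_OE libraries, against 74869 and 85931 CPM in the control libraries, with 11 positive and 3 negative log2 fold changes. The 10 measured neuronal markers summed to 284 and 359 CPM in the U1_OE libraries, against 182 and 120 CPM in the control libraries. TUBB3, a neuronal beta-tubulin, made up most of that sum, with 264 and 338 CPM in the U1_OE libraries, against 159 and 104 CPM in the control libraries. The median neuronal marker had 0.647 and 0.996 CPM in the U1_OE libraries, against 1.06 and 0.719 CPM in the control libraries. Measured neural progenitor markers, 7 of 10 listed, summed to 49.6 and 58.7 CPM in the U1_OE libraries, against 49.0 and 46.7 CPM in the control libraries, with 2 positive and 2 negative log2 fold changes among those tested. NES, an intermediate filament protein, had 39.4 and 44.5 CPM in the U1_OE libraries, against 24.3 and 30.0 CPM in the control libraries. PAX6, a transcription factor of neural progenitors, had 5.6 and 12.3 CPM in the U1_OE libraries, against 19.7 and 13.5 CPM in the control libraries. The U1_OE libraries were thus higher for NES and lower for PAX6. FABP7, MSI1 and LHX2 of that list lay under 1 CPM in every library, and none of the measured markers of these lists was at 0 in all libraries. Of 6 listed pluripotency markers 3 were measured, with a sum of 12.3 and 12.1 CPM in the U1_OE libraries against 15.9 and 9.95 CPM in the control libraries. Endothelial markers summed to 58.6 and 93.5 CPM in the U1_OE libraries, against 32.1 and 37.8 CPM in the control libraries. CDH5, KDR and VWF lay under 1 CPM in every library, whereas PECAM1, TEK and FLT1 carried nearly all of the sum. PECAM1 had 34.4 and 64.2 CPM in the U1_OE libraries, against 22.9 and 29.3 CPM in the control libraries. TEK and FLT1 were also higher in both U1_OE libraries, whereas CDH5 and KDR were lower in both. The tested endothelial markers had 3 positive and 1 negative log2 fold changes. Of the 3 measured immune markers, CD68 had 69.3 and 80.8 CPM in the U1_OE libraries, against 48.8 and 40.9 CPM in the control libraries, and carried nearly all of their sum, whereas CD14 lay under 1 CPM in every library. Their part in the cell cycle differences was not tested.

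**Figure D5:**
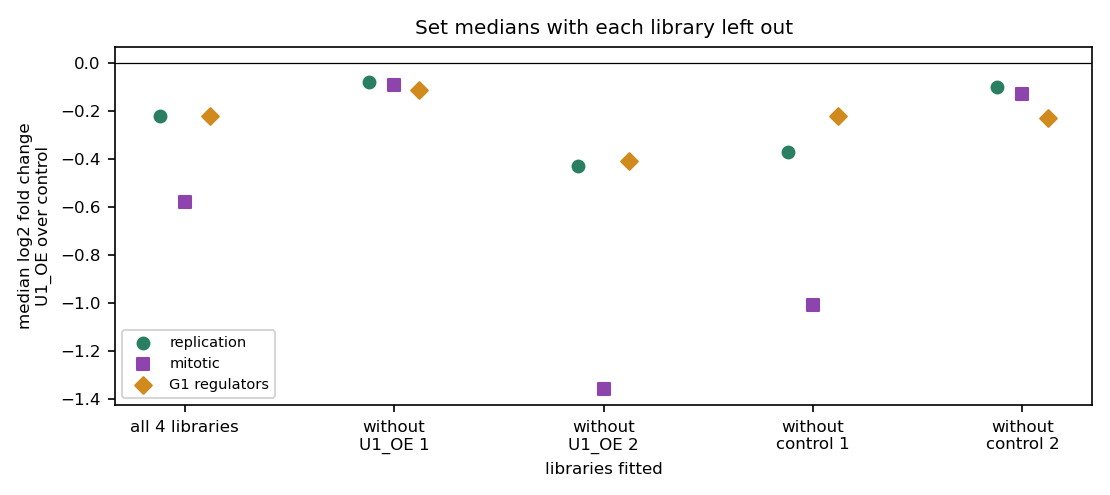
Median log2 fold change of U1_OE over control (vertical axis) for each gene set with all 4 libraries and with each library left out in turn (horizontal axis). The mitotic median ranges from -1.36 without U1_OE replicate 2 to -0.09 without U1_OE replicate 1, and the replication median from -0.43 to -0.08.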

How the data were processed

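The authors deposited 1 table of estimated counts per gene, not normalised, for 2 U1_OE and 2 control libraries. Per the submitters' processing notes, Trim Galore, STAR, featureCounts and DESeq2 were used with hg38; versions and roles are not stated. Of the values above 0, 1.99% lie within 0.01 of a whole number, and how the fractions arose is not stated. If reads were divided between genes, the 16 members that overlap another measured gene and the 12 with a named pseudogene depend on that division. Values were rounded and tested over the whole table with edgeR 4.0.16 in R 4.3.3 (filterByExpr, TMM, quasi-likelihood test, 17317 genes, Benjamini-Hochberg threshold 0.05). Standard errors of edgeR were worked back from the F statistic. DESeq2 1.42.0, limma-voom 3.58.1, other scalings and filters, a replicate block and each library left out were alternatives. Procedures were tested on simulated data with larger changes than those of the members, placed in genes that were not scarce. The spread between simulated replicates was set below that of these data (edgeR common dispersion 0.0869). That test therefore does not show how the procedures perform for small changes or scarce genes here. Exon lengths and gene positions are from GENCODE v29 (GRCh38). Promoter windows are from RefSeq; for 34 of 40, bases after the start lie in a GENCODE transcript of the gene. Members and lists were chosen with earlier results of these data known. Library values were given in full for the 6 members of each set with the smallest p, the 2 with the highest mean CPM, members called by DESeq2, and MKI67, TOP2A, PCNA, MCM2, CDK1, CCNB1, CCND1, CCND2 and CCND3, and of each other list up to 3 genes with the smallest p could be named.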

Additional observations from a re-analysis of the deposited data

How the results depend on the processing

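RLE size factors, DESeq2, library size alone, no filter on counts, limma-voom and the replicate block reversed none of the 48 log2 fold changes, nor did a mean of at least 50 counts for the 39 genes left. DESeq2 called 189 genes and 1 member. The number of members with an unadjusted p under 0.05 was 2, but 3 with DESeq2 and 7 with the replicate block. The share of all tested genes under this threshold was worked out only for the main edgeR fit, at 9.08%. The counts with DESeq2, with the replicate block and with a library left out therefore have no background beside them. The replicate block called 0 genes and 0 members and changed no call of edgeR. The labels do not tie equal replicate numbers together, and over all tested genes the gaps between replicates correlated at -0.082 between the groups.

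Leaving out each library reversed 15 of 48 estimates without U1_OE replicate 1, 2 without U1_OE replicate 2, 1 without control replicate 1 and 10 without control replicate 2. The mitotic median ran from -1.36 to -0.09, the G1 median from -0.41 to -0.11, the difference of replication and mitotic medians from 0.01 to 0.93, the negative mitotic genes from 12 to 20, the members at an unadjusted p under 0.05 from 2 to 18, and the DESeq2 estimate of CCND3 from -0.90 to -0.69. Those that changed sign ran from -0.32 to 0.06 for MCM3, -0.36 to 0.54 for MCM4, -0.24 to 0.15 for MCM7, -0.10 to 0.21 for PCNA, -0.42 to 0.17 for RRM1, -0.48 to 0.08 for E2F1, -0.41 to 0.26 for POLA1, -0.72 to 0.40 for CCNB1, -1.08 to 0.16 for CCNB2, -0.57 to 0.28 for AURKA, -0.79 to 0.02 for BUB1, -1.83 to 0.41 for BUB1B, -1.32 to 0.35 for PLK1, -1.40 to 0.58 for CDC20, -1.19 to 0.20 for KIF11, -1.05 to 0.19 for TPX2, -0.34 to 0.77 for CCND1, -0.74 to 0.05 for CCND2 and -0.47 to 0.09 for CDKN2A. Among the estimates that kept their sign, MCM5 ran from -1.40 to -0.30, GINS2 from -1.62 to -0.49, RRM2 from -2.15 to -0.03, CCNE2 from -3.36 to -0.68, MKI67 from -1.61 to -0.13 and CDKN2C from -1.34 to -0.63. The cause was not tested. The counts over signs and unadjusted p and the DESeq2 fits with a library left out were added after the data were seen. These smaller fits assume that a lone library varies as the other group does. The share of all tested genes with an unadjusted p under 0.05 was not worked out for them. Their counts of members under that threshold therefore cannot show whether cell cycle genes differ from other genes, and no conclusion is drawn from them. Depth limits CCNE2 and others of a few CPM.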
